A study of Mus musculus with 9 samples.

Results

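The transcripts of 10 genes of the endoplasmic reticulum (ER) stress system were followed in mouse primary renal tubular epithelial cells: Hspa5, Hsp90b1, Calr, Pdia4, Sdf2l1, Dnajb9, Herpud1, Xbp1, Atf6 and Ern1. They were chosen by name from the 31167 genes of the expression table, by a rule that uses no measured value, although earlier results of these data were known when they were chosen. The cells came from the kidney of C57BL/6 mice and were treated at about 50% confluence. The groups were Sham, H/R and EGR1OV, with 3 libraries each. H/R cells were kept in glucose-free medium at 1.0% oxygen for 6 h and then returned to complete medium with normal oxygen for 18 h, a culture model of ischemia followed by reperfusion. EGR1OV cells were transfected, with the reagent EndoFectin Max, with a plasmid that drives the transcription factor Egr1 from the CMV promoter. The labels give no hypoxia for EGR1OV, no empty-vector group, and no transfection reagent for Sham or H/R, so effects of Egr1 and of the plasmid or its delivery cannot be told apart. They also do not say whether the 3 libraries of a group came from separate cultures, so p-values measure the spread between these libraries, which may be technical.

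The ER is where secreted and membrane proteins are folded. Its main chaperone, Hspa5 (also called BiP or Grp78), binds unfolded chains and also holds the stress sensors Atf6, Ern1 (Ire1) and Eif2ak3 (Perk) in an inactive state. When unfolded protein builds up, Atf6 is cut to free a transcription factor, Ire1 splices the Xbp1 messenger RNA so that it encodes an active factor, and Perk slows translation. Atf6 and spliced Xbp1 then raise the genes of chaperones and of the machinery that degrades misfolded protein. In the kidney tubule this response is known for its activation after ischemia.

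The 10 genes moved little and not together. Against Sham, EGR1OV raised 4 of 10 (Sdf2l1, Ern1, Pdia4 and Hspa5) and lowered 0 at an adjusted p under 0.05 (limma, Benjamini-Hochberg), where 45.9% of all 13985 genes tested passed, 26.1% higher and 19.8% lower. The largest change was Sdf2l1, 38.7% higher, and it alone also reached 1.3-fold, which made 1 of 10 called, where 16.4% of all genes were, 9.87% higher and 6.51% lower. H/R raised 2 of 10, Hspa5 by 10.2% and Hsp90b1 by 7.97%, where 11.7% of all genes passed, 4.15% higher and 7.54% lower. None of the 10 was called in H/R at the 1.2-fold threshold, where 4.25% of all genes were, 1.6% higher and 2.65% lower. Of the 10, 4 had an unadjusted p under 0.05, and limma voom on read counts recovered from the table passed 4 and also called 0. A fit of only the 7588 genes at a mean of at least 5 FPKM held all 10. There 60.4% of all genes passed in EGR1OV and 20.5% in H/R, and the same 4 and 2 members.

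Depth, recovered from the steps of the FPKM values, ran from 16183617 to 18384022 reads. Egr1, the overexpressed gene, had mean FPKM values of 6.40 (Sham), 7.88 (H/R) and 42.6 (EGR1OV), with a log2 change of 2.56 in EGR1OV against Sham. The tubule label was checked on 14 markers, whose FPKM summed to between 1895 and 1933 in Sham, 1751 and 1829 in H/R, and 1233 and 1337 in EGR1OV. Umod was at 0 in every library and Slc34a1 at 0 in EGR1OV. Krt8 and Krt18 made up 1673 to 1714 of the Sham sum and 979 to 1085 of that in EGR1OV, and the 12 markers left summed to 219 to 222 in Sham, 238.9 to 249.3 in H/R and 251 to 264 in EGR1OV. Of 9 tubule markers tested, 3 passed higher and 5 lower in EGR1OV against Sham. Fibroblast markers (10 genes) summed to 2915 to 3030 in Sham, 2663 to 2859 in H/R and 1149 to 1219 in EGR1OV, nearly all of it Acta2, a contractile gene (2873 to 2986 in Sham and 1101 to 1175 in EGR1OV). The 9 without Acta2 summed to 40.8 to 43.3 in Sham, 48.9 to 50.7 in H/R and 43.7 to 48.0 in EGR1OV, and Lum was at 0 in Sham and H/R. Of 7 fibroblast markers tested, 2 passed higher and 2 lower in EGR1OV. Leukocyte markers (13 genes) summed to 170 to 180, 148 to 157 and 53.4 to 60.9 in the same order of groups. Of 11 leukocyte markers tested, 10 passed lower and 1 higher in EGR1OV against Sham. The higher one was Cd14, at 4.76 to 5.82 FPKM in Sham and 16.1 to 19.8 in EGR1OV. Endothelial markers (9 genes) summed to 12.3 to 13.2, 12.7 to 13.5 and 9.04 to 9.46. Plasma cells are rich in ER, and of their 6 markers only Sdc1, which epithelium also makes, reached 1 FPKM in any library. The part of these markers in the changes below was not tested. In whole-culture RNA, fewer cells of a type and less RNA per cell cannot be told apart.

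Sequences through which genes are known to answer ER stress are shown first. The searches took exact letters only, so a member without a match may still hold a variant. The ER stress response element (ERSE), bound by Atf6 together with the factor NF-Y, was searched as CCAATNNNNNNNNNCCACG on both strands of the 300-base promoters of the RefSeq table (GRCm38.p6, 250 bases before to 50 after the start). Promoters were given for 9 of the 10 members; Atf6 was not among them. The element was found in 3 members and in 39 of 32851 promoters (0.119%). In the lines below the capitals mark the CCAAT and CCACG parts, with 5 bases of flank on each side.
Hspa5, chr2:34772020-34772048 (+): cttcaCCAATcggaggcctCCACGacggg
Hsp90b1, upstream match, chr10:86705633-86705661 (-): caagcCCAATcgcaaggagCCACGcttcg
Hsp90b1, match on the strand opposite to the gene, chr10:86705528-86705556 (+): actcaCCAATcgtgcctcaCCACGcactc
Calr, match on the strand opposite to the gene, chr8:84847070-84847098 (+): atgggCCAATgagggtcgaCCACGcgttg

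The Hspa5 element lay 65 to 47 bases before the RefSeq start, inside a 5′ UTR exon of a GENCODE M21 transcript of Hspa5. The upstream Hsp90b1 match lay 212 to 194 bases and the other 107 to 89 bases before the start, and the Calr match lay 162 to 144 bases before it, all 3 in intergenic sequence. A second form of the element, ERSE-II, was searched as ATTGG and CCACG with any 1 base between them, and was found in 1 member, Herpud1, and in 12 of the 32851 promoters (0.0365%). It lay 52 to 42 bases before the Herpud1 start, within the annotated gene Gm15890.
Herpud1, chr8:94386372-94386392 (+): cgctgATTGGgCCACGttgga

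Sdf2l1, the member with the largest change, held neither element in this window. Its 250 bases before the start (chr16:17132384-17132633, minus strand, intergenic) are shown because they hold CCAAT 3 times and CCACG 3 times, on either strand and in capitals, at other spacings than the searched ones.
Sdf2l1 promoter: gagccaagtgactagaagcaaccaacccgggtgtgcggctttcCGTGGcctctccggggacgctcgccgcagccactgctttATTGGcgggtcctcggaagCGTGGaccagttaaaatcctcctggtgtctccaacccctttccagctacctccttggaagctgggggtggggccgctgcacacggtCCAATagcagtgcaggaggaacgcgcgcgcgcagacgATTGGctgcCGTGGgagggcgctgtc

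The core of the element bound by spliced Xbp1, TGACGTGG, was found in 222 promoters (0.676%) and in 0 of the 9 members. A match is a description of letters, not a measured binding site. The last sequence shows, in capitals, 26 bases of Xbp1 whose removal gives the spliced form made by Ire1. They lie at chr11:5524282-5524307 (+), in the coding sequence of all 3 protein-coding Xbp1 transcripts of GENCODE M21. The letters cag stand directly before the capitals and also end them. Removing the 26 bases that start 3 bases earlier therefore leaves the same spliced sequence. The capitals thus do not mark the exact positions at which Ire1 cuts.
Xbp1 intron: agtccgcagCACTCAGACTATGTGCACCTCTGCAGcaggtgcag

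These 26 bases are 0.800% of the 3248 exon bases of Xbp1, and a value per gene counts reads of spliced and unspliced messenger RNA alike. The Xbp1 values below therefore do not measure splicing by Ire1.

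Levels are given as FPKM, the fragments of a gene divided by the length of its exons and by the fragments of the library, so genes can be compared per length. In Sham the order ran from Calr at 294 ± 5.01 FPKM (SD, n = 3, as for all means below) to Ern1 at 6.56 ± 0.378. Calr stood at the 99.3rd percentile of the genes tested, Hspa5 at the 98.6th, Hsp90b1 at the 96.7th and Pdia4 at the 95.9th. The chaperones of the lumen apart from Sdf2l1 and Dnajb9 thus filled the top of the list, and the sensors Atf6 (65.5th) and Ern1 (54.3rd) its end. Xbp1 (90.0th), Herpud1 (80.1st), Dnajb9 (76.3rd) and Sdf2l1 (72.6th) lay between them. No neighbours in this order overlapped in Sham. The order was the same in H/R, with Herpud1 and Dnajb9 overlapping, and in EGR1OV Sdf2l1 moved above Herpud1 and Dnajb9, where Sdf2l1 overlapped Herpud1 and Herpud1 overlapped Dnajb9.

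**Figure D1:**
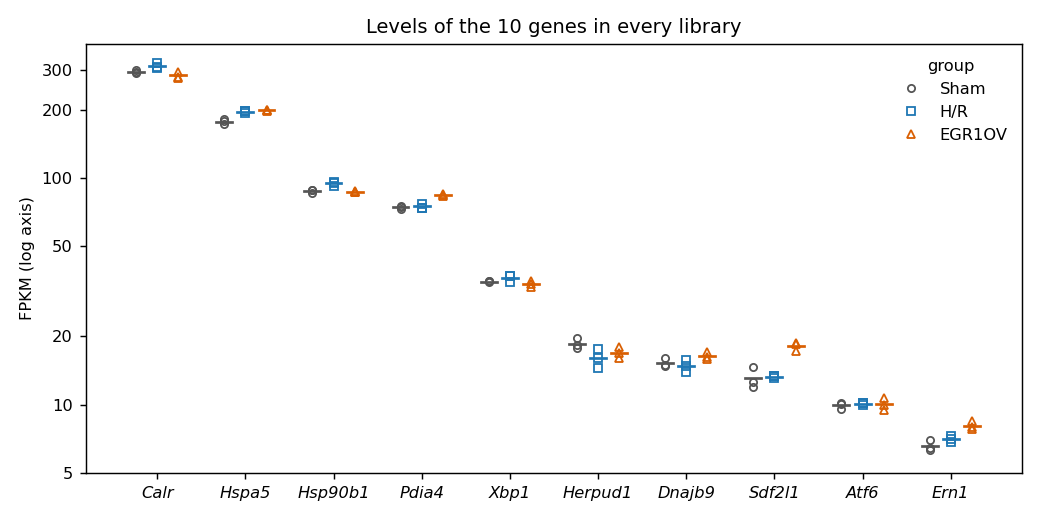
FPKM of the 10 genes (log axis) in each of the 9 libraries, with circles for Sham, squares for H/R, triangles for EGR1OV and a bar at each group mean (n = 3). The genes span from 294 FPKM for Calr to 6.56 for Ern1 in Sham, and the groups of one gene lie close together beside that range.

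Hspa5 (ENSMUSG00000026864, chr2:34771970-34777547, plus strand), the central Hsp70 chaperone of the lumen, was at 173, 181 and 178 FPKM in Sham, 197, 193 and 197 in H/R, and 199, 200 and 198 in EGR1OV. Every treated library lay above every Sham library, and those of EGR1OV lay just above those of H/R. The log2 change against Sham was 0.14 in H/R (SE 0.0237, adjusted p = 0.0077) and 0.16 in EGR1OV (adjusted p = 0.000394). Between EGR1OV and H/R it was 0.025, with a 95% interval from -0.028 to 0.079 (adjusted p = 0.411). Hspa5 passed against Sham in both groups under all 19 other settings of the fit.

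Hsp90b1 (ENSMUSG00000020048, chr10:86690209-86705509, minus strand), the Hsp90 of the ER (Grp94), was at 86.0, 88.4 and 88.5 FPKM in Sham, 92.5, 96.3 and 95.1 in H/R, and 87.3, 87.0 and 87.2 in EGR1OV. All H/R libraries lay above the other 6, and EGR1OV lay within the Sham range. The log2 change was 0.11 in H/R (SE 0.0235, adjusted p = 0.02) and -0.0076 in EGR1OV (95% interval -0.061 to 0.046, adjusted p = 0.820). EGR1OV was lower than H/R by -0.12 on the log2 scale (adjusted p = 0.00259). The H/R rise missed the threshold in 4 of 19 other settings, which were limma without trend and leaving out Sham replicate 1, H/R replicate 2 or H/R replicate 3, with a highest adjusted p of 0.0708. Its exons overlap 1810014B01Rik on the opposite strand by 415 bases, and reads of both cannot be told apart without strand.

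Calr (ENSMUSG00000003814, chr8:84841850-84846934, minus strand) encodes calreticulin, the calcium-binding chaperone of glycoproteins. It was at 289, 293 and 299 FPKM in Sham, 321, 305 and 310 in H/R, and 280, 277 and 294 in EGR1OV. As with Hsp90b1, H/R was the highest group without overlap, and EGR1OV overlapped Sham. The log2 change was 0.085 in H/R (SE 0.0301, adjusted p = 0.103) and -0.052 in EGR1OV (adjusted p = 0.190), and neither passed. The direct comparison did, with EGR1OV lower than H/R by -0.14 (adjusted p = 0.00415). In H/R, Calr passed in 3 of 19 other settings, which were median-ratio scaling, quantile normalization and voom, over a range of adjusted p from 0.0103 to 0.247.

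Pdia4 (ENSMUSG00000025823, chr6:47796141-47813430, minus strand), a disulfide isomerase known also as Erp72, was at 74.4, 72.8 and 75.6 FPKM in Sham, 76.9, 74.0 and 74.0 in H/R, and 84.8, 83.0 and 83.9 in EGR1OV. All EGR1OV libraries lay above the other 6, and H/R overlapped Sham. Its log2 change was 0.17 in EGR1OV (SE 0.0253, adjusted p = 0.000428) and 0.013 in H/R (95% interval -0.044 to 0.070). EGR1OV was higher than H/R by 0.16 (adjusted p = 0.0006), in the opposite direction to Hsp90b1 and Calr.

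Sdf2l1 (ENSMUSG00000022769, chr16:17130138-17132383, minus strand) encodes a small lumenal protein that works with Hspa5 and its J-domain partners. It was at 12.6, 14.6 and 12.0 FPKM in Sham, 13.3, 13.4 and 13.1 in H/R, and 18.7, 18.4 and 17.2 in EGR1OV. The EGR1OV libraries lay above all others, and H/R lay inside the Sham range. These values rest on 219 to 344 reads, the fewest among the chaperones of the lumen. The log2 change in EGR1OV was 0.45 (SE 0.0629, 95% interval 0.30 to 0.59, adjusted p = 0.000343), and an exact permutation test (two-sided) gave p = 0.1, the smallest that 3 against 3 allow. In H/R it was 0.025 (95% interval -0.12 to 0.17, adjusted p = 0.842). Against H/R, EGR1OV was higher by 0.42 (adjusted p = 0.000431). Under quantile normalization the change against Sham was 0.34 (adjusted p = 0.00175), below 1.3-fold, and over all 19 other settings its adjusted p stayed at or below 0.00210.

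**Figure D2:**
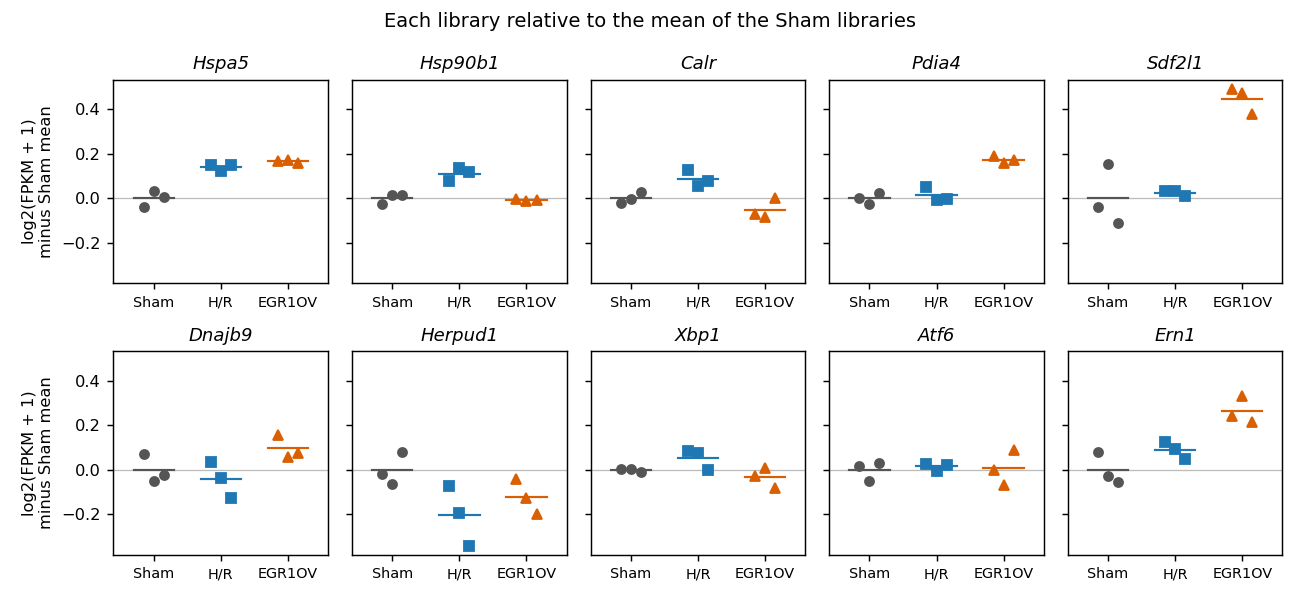
log2(FPKM + 1) of each library minus the mean of the 3 Sham libraries, 1 panel per gene, with a bar at each group mean (n = 3). Hspa5 is higher in both treated groups, Hsp90b1 and Calr are highest in H/R, and Pdia4, Sdf2l1 and Ern1 are highest in EGR1OV.

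Dnajb9 (ENSMUSG00000014905, chr12:44205559-44210326, minus strand), the J-domain cochaperone ERdj4 and a known target of spliced Xbp1, was at 16.1, 14.8 and 15.0 FPKM in Sham, 15.7, 14.9 and 13.9 in H/R, and 17.2, 16.0 and 16.2 in EGR1OV. The groups overlapped Sham in both cases. The log2 change was 0.097 in EGR1OV (95% interval -0.018 to 0.21, adjusted p = 0.152) and -0.043 in H/R (-0.16 to 0.072, adjusted p = 0.630). EGR1OV was higher than H/R by 0.14 (adjusted p = 0.0445), which passed in 6 of 19 other settings, over a range of adjusted p from 0.0135 to 0.946.

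Herpud1 (ENSMUSG00000031770, chr8:94386438-94395377, plus strand), a membrane protein of the ER degradation machinery, was at 18.3, 17.7 and 19.7 FPKM in Sham, 17.6, 16.1 and 14.5 in H/R, and 18.0, 16.9 and 16.0 in EGR1OV. The H/R libraries lay below every Sham library, and EGR1OV overlapped both groups. The log2 change in H/R was -0.20 (SE 0.0701, adjusted p = 0.0997) and in EGR1OV -0.12 (adjusted p = 0.186). Neither passed. Without H/R replicate 1, the highest H/R library, the H/R value was -0.27 (adjusted p = 0.0459), past the 1.2-fold threshold, and over the 19 other settings the adjusted p ran from 0.0262 to 0.252. Herpud1 was the one member whose H/R libraries all lay below the Sham range.

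Xbp1 (ENSMUSG00000020484, chr11:5520659-5525893, plus strand), the transcription factor made active by Ire1, was at 35.0, 35.0 and 34.6 FPKM in Sham, 37.0, 36.8 and 34.9 in H/R, and 34.2, 35.1 and 33.0 in EGR1OV. All groups overlapped. The log2 change was 0.053 in H/R (95% interval -0.019 to 0.13, adjusted p = 0.319) and -0.033 in EGR1OV (-0.11 to 0.040, adjusted p = 0.443). The direct comparison of EGR1OV with H/R was -0.086 (adjusted p = 0.0495), which passed in 7 of 19 other settings.

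Atf6 (ENSMUSG00000026663, chr1:170704674-170867771, minus strand), the sensor that is cut to free a transcription factor, was at 10.1, 9.61 and 10.2 FPKM in Sham, 10.2, 9.95 and 10.1 in H/R, and 9.97, 9.45 and 10.7 in EGR1OV. The group means lay within 1.15% of each other and the libraries overlapped. The log2 change was 0.015 in H/R (95% interval -0.086 to 0.12) and 0.0069 in EGR1OV (-0.094 to 0.11). Cutting of the Atf6 protein is not seen in its messenger RNA.

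Ern1 (ENSMUSG00000020715, chr11:106394650-106487852, minus strand) encodes the sensor Ire1 alpha, a kinase and endoribonuclease. It was at 6.99, 6.41 and 6.29 FPKM in Sham, 7.24, 7.07 and 6.82 in H/R, and 7.94, 8.51 and 7.78 in EGR1OV. The EGR1OV libraries lay above all others, and H/R overlapped Sham. The log2 change was 0.26 in EGR1OV (SE 0.0489, adjusted p = 0.00187), 23.1% in FPKM, and 0.090 in H/R (adjusted p = 0.270). Against H/R, EGR1OV was higher by 0.17 (adjusted p = 0.0149). That direct comparison did not pass in 5 of 19 other settings, among them both other scalings and the fits without H/R replicate 3 (adjusted p = 0.0520) or EGR1OV replicate 2 (0.0555), with a range from 0.0021 to 0.547. For the sensor and its messenger RNA substrate Xbp1, which act in 1 branch, the EGR1OV changes against Sham were thus 0.26 and -0.033, and the difference between them was not tested.

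Across the 10 genes the median log2 change was 0.052 in EGR1OV and 0.039 in H/R against Sham, beside 0.017 and -0.030 over all genes tested. In EGR1OV 4 of 10 lay above Sham without overlap and 0 below, where groups did not overlap for 55.7% of all genes (31% above and 24.6% below). In H/R 3 lay above and 1 below, where the share over all genes was 33.6% (11.8% above and 21.8% below). In the direct comparison of EGR1OV with H/R 7 of 10 passed, where 51% of all genes did, 32% higher and 19% lower. With the filter at 5 FPKM, 64.8% of all genes did. Of the 10, 1 (Sdf2l1) was called, where 18.9% of all genes were, 11.9% higher and 6.94% lower. EGR1OV lay above H/R without overlap for 5 members and below it for 2, where the share was 58.6% over all genes (36.6% above and 22% below). Of the 7 that passed, Ern1, Pdia4, Sdf2l1 and Dnajb9 were higher in EGR1OV, and Hsp90b1, Calr and Xbp1 lower. The count depended on scaling: 2 higher and 3 lower passed under median-ratio scaling, and 2 higher and 4 lower under quantile normalization. Against Sham, quantile normalization of EGR1OV gave 4 higher and 3 lower (Hsp90b1, Xbp1 and Herpud1), with the same 4 higher.

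**Figure D3:**
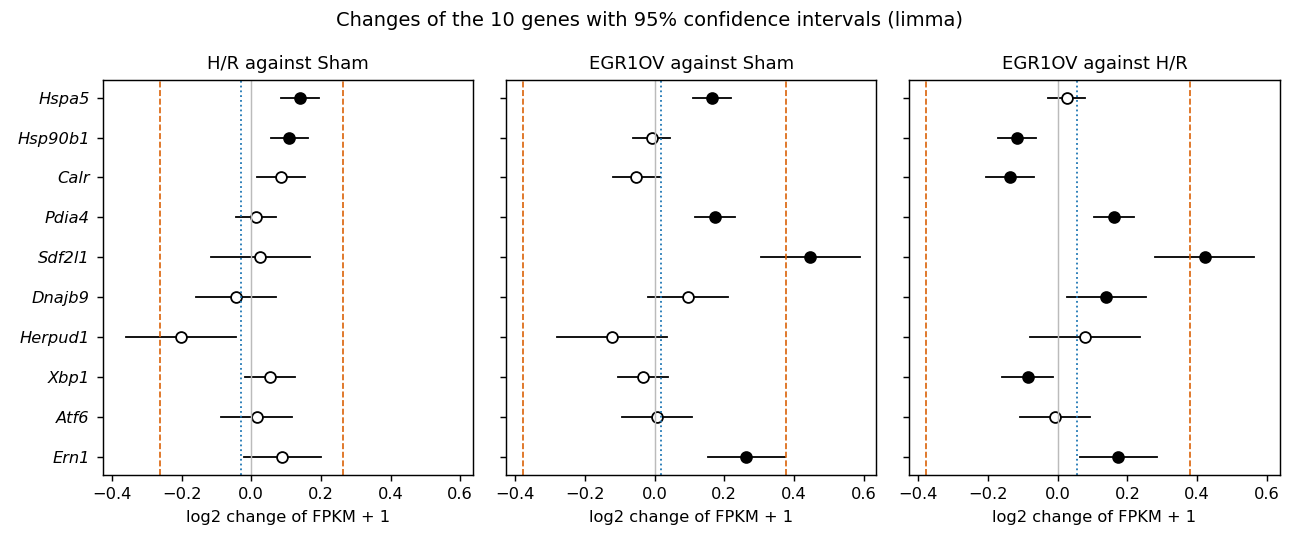
log2 change of FPKM + 1 for each gene in the 3 comparisons, with 95% confidence intervals from limma; filled points passed an adjusted p of 0.05, dashed lines mark the fold threshold (1.2 for H/R against Sham, 1.3 otherwise) and the dotted line the median of all 13985 genes. Sdf2l1 alone passes a dashed line with an adjusted p under 0.05, in both EGR1OV panels.

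The wider pathway was read from 7 lists of 90 other genes, 88 of them tested. Together 32 passed higher and 20 lower in EGR1OV against Sham, with 11 called higher and 1 called lower and a median log2 change of 0.025. As shares, 36.4% passed higher and 22.7% lower, beside 26.1% and 19.8% of all genes, and 12.5% were called higher and 1.14% lower, beside 9.87% and 6.51%. In H/R 3 passed higher and 10 lower, with 1 called higher and 5 lower and a median of -0.00026. There 3.41% passed higher and 11.4% lower, beside 4.15% and 7.54% of all genes. The lists below are read against these shares over all genes, 45.9% passed in EGR1OV and 11.7% in H/R. With the filter at 5 FPKM, which kept 84 of the 88, the shares over all genes were higher, 60.4% and 20.5%. The EGR1OV changes thus ran in both directions, and the split turned with scaling, to 27 higher and 25 lower under median-ratio scaling and 23 higher and 32 lower under quantile normalization. In H/R the same scalings gave 9 higher and 8 lower, and 4 higher and 9 lower.

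Of 13 other luminal chaperones and cochaperones, 6 passed higher and 3 lower in EGR1OV, 69.2% in all, and 7.69% were called, beside 16.4% of all genes. Sil1, which exchanges nucleotide on Hspa5, was called, from 13.8 ± 0.528 FPKM in Sham to 19.8 ± 0.930 (log2 change 0.50). Dnajb11, the J-domain partner ERdj3, rose from 27.3 ± 0.392 to 35.1 ± 0.479 FPKM (log2 change 0.35), and Hyou1, an Hsp70-like exchange factor, from 33.9 ± 0.462 to 39.1 ± 0.507 (0.20). The others that passed higher were Cnpy3 (0.38), Creld2 (0.27) and Dnajc1 (0.16). Against H/R, Cnpy3 was also called higher (0.50). The 3 that passed lower were Sec63, a J-domain protein of the translocation channel, from 24.5 ± 0.0929 to 19.7 ± 0.721 FPKM (-0.30), Dnajc3 (-0.19) and Manf (-0.16). All of these but Sil1 and Cnpy3 are named after their values were seen. In H/R 0 of the 13 passed, with 2 at an unadjusted p under 0.05 and 0 by voom.

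The list of 15 disulfide isomerases and oxidases also held the prolyl isomerases Fkbp2, Fkbp7, Fkbp10, Fkbp11, Fkbp14 and Ppib. Of the 15, 2 passed higher and 5 lower in EGR1OV, 46.7% in all, with Fkbp11 among the higher and Ppib among the lower. Fkbp11, a prolyl isomerase of the ER, was called higher at 6.89 ± 0.794 against 4.69 ± 1.10 FPKM (log2 change 0.49, adjusted p = 0.0159), but did not pass without EGR1OV replicate 3 (0.40, adjusted p = 0.0584). In H/R 1 passed: Ero1l, the oxidase that recharges the isomerases and a gene also known to be hypoxia-inducible, was called higher. It was at 14.6, 15.4 and 14.5 FPKM in Sham, 18.8, 18.4 and 19.7 in H/R, and 14.5, 13.6 and 13.9 in EGR1OV. Its log2 change in H/R was 0.33 (SE 0.0386, adjusted p = 0.00161), larger than that of any of the 10 members there. Of the 15 genes, 4 had an unadjusted p under 0.05 in H/R, and by voom 3 passed and 2 were called.

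Of 16 genes of ER-associated degradation, 7 passed higher and 3 lower in EGR1OV, 62.5% in all, and 0 passed in H/R, with 3 at an unadjusted p under 0.05 and 0 by voom. Syvn1, the ubiquitin ligase Hrd1, was called higher in EGR1OV at 19.6 ± 0.286 against 13.8 ± 0.738 FPKM (log2 change 0.48, adjusted p = 3.47e-05). Of 22 genes of translocation and N-glycosylation, 7 passed higher and 6 lower in EGR1OV, 59.1% in all. Prkcsh, the beta subunit of glucosidase II, rose from 43.4 ± 0.956 to 57.7 ± 0.987 FPKM (log2 change 0.40). Spcs3, a subunit of the signal peptidase, was called lower, at 64.2 ± 2.69 against 93.9 ± 0.941 FPKM (-0.54). In H/R, 6 of these 22 had an unadjusted p under 0.05 and 4 passed by voom. Spcs3 was the 1 gene that passed in the main limma fit, at 111 ± 2.89 FPKM (0.24, adjusted p = 0.00286). Its group means ran in the order of those of Hsp90b1 and Calr, with H/R highest and EGR1OV lowest. For Hsp90b1 and Calr, however, EGR1OV overlapped Sham, while for Spcs3 it lay below Sham without overlap.

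Of 10 other stress sensors and processing enzymes, 4 passed higher and 2 lower in EGR1OV, where 26.1% and 19.8% of all genes did. Creb3l1 (OASIS), a membrane-bound transcription factor of the Atf6 kind, rose from 12.9 ± 0.833 to 31.1 ± 1.28 FPKM (adjusted p = 9.85e-08). Tmbim6, the Bax inhibitor 1 of the ER membrane, rose from 117 ± 1.13 to 161 ± 3.62 FPKM (0.46). Traf2, an adaptor that binds Ire1, rose from 5.35 ± 0.274 to 7.39 ± 0.567 FPKM (0.40). Eif2ak3, the sensor Perk, named after its values were seen, fell from 25.3 ± 0.527 to 20.4 ± 0.831 FPKM (-0.30, adjusted p = 0.000315). Of the sensors, Ern1 was thus higher, Eif2ak3 lower and Atf6 within its spread.

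The branch downstream of Perk held the largest change of the 88 genes in each comparison with Sham, Ddit3 in EGR1OV and Trib3 in H/R. Of its 10 genes, 5 passed higher and 1 lower in EGR1OV, where 26.1% and 19.8% of all genes did. The 1 lower was Asns (-0.17, limma adjusted p = 0.000522). Atf4 (-0.016), Chac1 (-0.16), Sesn2 (0.093) and Bbc3 (0.055) did not pass in EGR1OV. These and Asns are named after their values were seen. In H/R 0 passed higher and 8 lower, 5 of them called, where 4.15% and 7.54% of all genes passed and 2.65% were called lower. Ddit3 (CHOP), the factor linked to cell death under ER stress, was at 22.8, 23.1 and 24.1 FPKM in Sham, 19.4, 18.1 and 17.8 in H/R, and 64.7, 68.5 and 67.2 in EGR1OV. Its log2 change was 1.48 in EGR1OV (adjusted p = 2.60e-09) and -0.32 in H/R (adjusted p = 0.00189), and EGR1OV was higher than H/R by 1.80. Atf3 went from 5.36 ± 0.537 FPKM in Sham to 3.77 ± 0.457 in H/R and 13.7 ± 0.682 in EGR1OV, and Trib3 from 17.0 ± 1.05 to 11.2 ± 1.18 and 24.2 ± 0.114. The signs of the Ddit3, Atf3 and Trib3 changes held under both other scalings. These genes also answer to stresses outside the ER. Of 3 known substrates of Ire1-dependent RNA decay 2 were tested, and Scara3 was called higher in EGR1OV, at 8.64 ± 0.661 against 4.41 ± 0.419 FPKM (0.84). The other, Hgsnat, named after its values were seen, did not pass in EGR1OV (-0.050, limma adjusted p = 0.246). In H/R Hgsnat passed lower (-0.15, adjusted p = 0.0205) and Scara3 did not pass (-0.046).

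**Figure D4:**
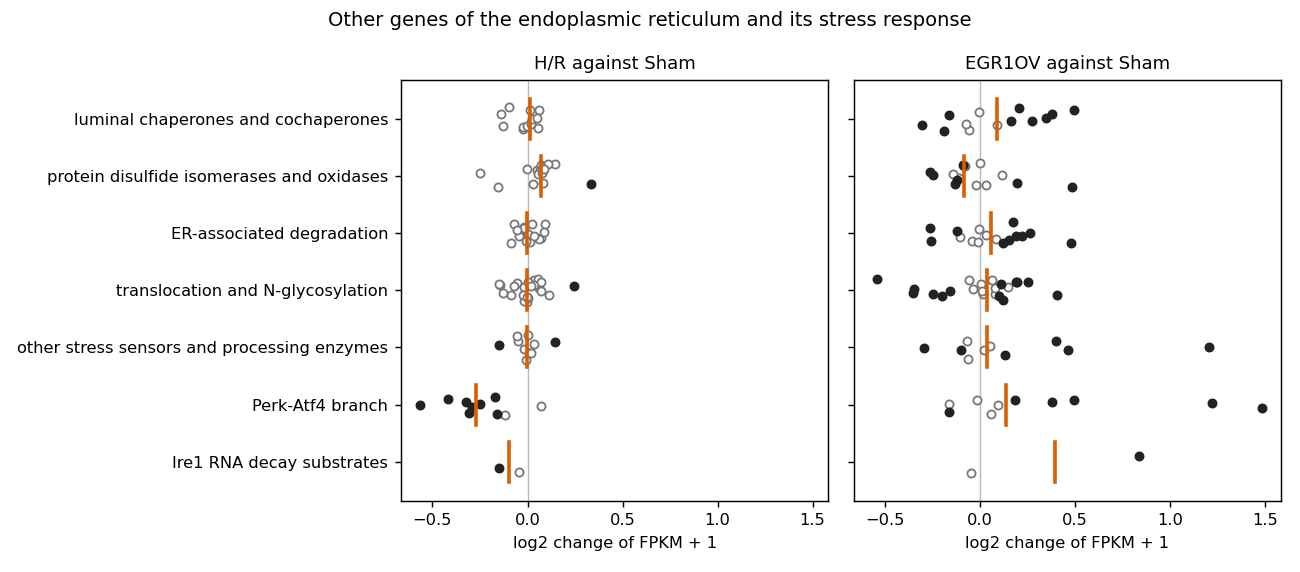
log2 change of FPKM + 1 against Sham for the 88 other pathway genes, 1 row per list, H/R on the left and EGR1OV on the right; filled points passed an adjusted p of 0.05 and the orange bar is the median of the list. In H/R the filled points are mainly falls of the Perk-Atf4 branch, and in EGR1OV they lie on both sides of 0 in most lists.

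The stress element was followed beyond the members as well. An ERSE or ERSE-II match was held by the promoters of 45 other gene symbols, of which 31 were in the table and 21 were tested. In EGR1OV 8 of the 21 passed higher and 4 lower, with a median log2 change of 0.090 beside 0.017 over all genes. The shares were 57.1% passed, beside 45.9% of all genes (60.4% with the filter at 5 FPKM), and 4.76% called (Syvn1), beside 16.4%. These counts are not separate from those of the pathway lists above. Canx, Creld2, Dnajb11, Dnajc3, Pdia6 and Syvn1 stand in both, and all of these but Canx passed in EGR1OV. In H/R 0 passed higher and 1 lower, with a median of -0.017 beside -0.030 over all genes. Among the 4 members with a match the EGR1OV changes were 0.16 for Hspa5, -0.0076 for Hsp90b1, -0.052 for Calr and -0.12 for Herpud1, so that only Hspa5 of these 4 passed. Of the 5 members with a promoter and no match, Sdf2l1, Pdia4 and Ern1 passed and Dnajb9 and Xbp1 did not.

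The profile of Hspa5 over the 9 libraries was compared with 7587 genes at a mean of at least 5 FPKM, by the root-mean-square distance between gene-centered log2(FPKM + 1) values. The nearest were Clint1 (distance 0.0153), Plaa (0.0258), Crebzf (0.0277), Map2k3 (0.0290) and Arl4c (0.0301). The profile of Hspa5 has itself a root-mean-square of 0.0750 about its mean, and the median distance over all genes was 0.138. None of the 9 other members was among these 5. The closest member was Pdia4 at rank 514 and the farthest Sdf2l1 at rank 5282.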

How the data were processed

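RNA-seq was done on an Illumina NovaSeq. FPKM values for the 9 libraries, unpooled, were deposited by the authors in 1 table. The submitters' processing notes name HISAT2 2.1.0, Bowtie2 2.2.3, TopHat2 and the build mm9, without roles, but all 10 members' positions, and 94.6% of all, equal GENCODE M21 (GRCm38), so coordinates are given on GRCm38. Counting and strandedness are not given in the sources used here.

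The filter was a mean of 0.5 FPKM or more, which kept 13985 genes and all 10 members. log2(FPKM + 1), which understates changes of low genes, was fitted for all 9 libraries with limma 3.58.1 in R 4.3.3 (lmFit, eBayes with trend, two-sided), with Benjamini-Hochberg adjustment over all genes. A gene passed at an adjusted p under 0.05, and was called if it also changed 1.3-fold, or 1.2-fold in H/R against Sham. Against Sham these are the study's thresholds, and 1.3-fold between EGR1OV and H/R was set here. Reads were recovered from FPKM and exon lengths. Of 162885 recovered values, 94.0% were whole within 0.02 reads. Single genes were also compared by exact permutation. The code was tested on simulated data.

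The members and lists were chosen with earlier results of these data known. All members were named, with up to 3 called genes per list and comparison by size of change, and the 5 genes nearest to Hspa5. Others are said to be named after their values were seen. Other settings tried were median-ratio scaling, quantile normalization, a filter at 5 FPKM or none, a pseudocount of 0.1, the replicate number as a block, eBayes without its trend, fitting 2 groups at a time, no fold threshold, leaving out each library, and, added after seeing the data, limma voom on recovered reads and log2 of Gm23935 as a covariate. Gm23935, whose share of reads varied within every group, held 0.00852% to 0.124% of them.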

Additional observations from a re-analysis of the deposited data

Results flagged for a closer look

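For 4 members the changes in H/R and in EGR1OV against Sham had opposite signs, and the direct comparison of EGR1OV with H/R passed an adjusted p of 0.05 (limma). Of their changes against Sham, only that of Hsp90b1 in H/R passed, so the opposite signs are not established as opposite responses. Hsp90b1 was at -0.12 (log2) in EGR1OV against H/R, beside 0.11 in H/R and -0.0076 in EGR1OV against Sham. Calr was at -0.14, beside 0.085 and -0.052. Both passed in all 19 other settings of the fit. Dnajb9 was at 0.14, beside -0.043 and 0.097, and passed in 6 of 19. Xbp1 was at -0.086, beside 0.053 and -0.033, and passed in 7 of 19. For Hsp90b1, Calr and Dnajb9 the EGR1OV and H/R libraries did not overlap, as for 58.6% of all genes, and for Xbp1 they did.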

How the results depend on the processing

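Over 19 other settings (20 with the one of no fold threshold, which is counted apart below), the 570 member values included 565 on the same side of the calling threshold, 4 no longer called, 1 newly called and 0 called values of opposite sign. Another 14 values that were not called changed sign. Members called in EGR1OV against Sham (1) were 0 under quantile normalization and 4 with no fold threshold. Members called in EGR1OV against H/R (1, Sdf2l1) were 0 under median-ratio scaling (Sdf2l1 log2 change 0.36), quantile normalization (0.29) and the Gm23935 covariate (0.33), and 7 with no fold threshold. Members called in H/R (0) were 2 with no fold threshold and 1 without H/R replicate 1. With no fold threshold the pathway genes called went from 12 to 52 in EGR1OV against Sham, from 6 to 13 in H/R and from 16 to 59 in EGR1OV against H/R. Leaving out 1 library gave 0 to 1 members called in H/R and 1 in each other comparison, and 12 to 13, 5 to 6 and 14 to 19 pathway genes. The cause of these moves was not tested. Of all genes called, 60.3% were higher in EGR1OV against Sham and 45.6% under quantile normalization. The share was 37.7% in H/R, and 58.0% under median-ratio scaling and 56.1% under quantile normalization. In EGR1OV against H/R it was 63.2%, 52.0% and 42.4%.

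Same-numbered libraries of different groups correlated between -0.195 and 0.263 in their deviations over 7588 genes, above 0.1 in 2 of 9 pairs, and a library correlated best with its own number in 5 of 18 cases, so the numbers were not taken to pair the samples. With the replicate block the members called stayed at 1 in EGR1OV against Sham, 0 in H/R and 1 in EGR1OV against H/R, and 4, 2 and 7 members passed. Sdf2l1, at 219 to 344 reads, had an SE of 0.0629, and Hspa5, at 12004 to 14997 reads, one of 0.0237.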
